A study of Mus musculus with 2 samples.

Results

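The primary granule genes described here are Mpo, Elane, Prtn3, Ctsg, Ms4a3 and Cst7. They were named by symbol as genes of myeloid progenitors, and all of their probes were taken: 10 probes for 6 genes, of 45281 probes and 19057 named genes on the array. Total RNA came from bone marrow cells of the C57BL/6J strain sorted as lineage- Sca1+ c-Kit+ (LSK), a gate for haematopoietic stem cells and early progenitors. The groups were Ago2 Hem KO, 1 sample, and Control, 1 sample, each on 1 Illumina bead array. The comparison asks how transcripts of these cells differ when Ago2, an Argonaute protein that silences messenger RNAs with microRNAs, is deficient. The labels give neither the allele or Cre behind "Hem KO", nor the animals' age or number, nor what the control carried. With 1 array per genotype there is no replicate check and no p-value, and having so few arrays bounds how precise any value can be.

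Primary (azurophil) granules are the first granules that form as progenitors commit to the granulocyte and monocyte lineages, and their cargo is transcribed mainly at the progenitor stage, before mature neutrophils appear. Mpo encodes myeloperoxidase, which makes hypochlorous acid from hydrogen peroxide and chloride. Elane (neutrophil elastase), Prtn3 (proteinase 3) and Ctsg (cathepsin G) encode serine proteases that are stored in the granule after cathepsin C removes a short activation peptide. Ms4a3 encodes a membrane protein of the MS4A family that marks granulocyte-monocyte progenitors, and Cst7 encodes cystatin F, an inhibitor of cysteine cathepsins, cathepsin C among them. C/EBP proteins, PU.1, Myb and RUNX1 are known activators of such genes.

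The promoters of the proteases Elane and Prtn3, which lie next to each other on chromosome 10, are shown because of how alike the letters before their starts are. Each runs 5′ to 3′ from 250 bases before to 50 bases after the RefSeq start (GRCm38.p6, plus strand), chr10:79886062-79886361 for Elane and chr10:79879417-79879716 for Prtn3. Capitals mark matches on either strand to any of GGAAGT (PU.1 and other ETS factors), CAACNG (Myb), TTNNGNAA (C/EBP), TGTGGT (RUNX) and TATAA (TATA box).
Elane: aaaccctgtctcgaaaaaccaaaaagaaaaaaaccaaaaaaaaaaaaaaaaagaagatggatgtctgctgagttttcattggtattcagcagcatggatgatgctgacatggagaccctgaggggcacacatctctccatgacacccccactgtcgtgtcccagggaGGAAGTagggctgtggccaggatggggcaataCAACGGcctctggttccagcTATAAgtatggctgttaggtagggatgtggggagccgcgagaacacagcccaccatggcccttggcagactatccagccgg
Prtn3: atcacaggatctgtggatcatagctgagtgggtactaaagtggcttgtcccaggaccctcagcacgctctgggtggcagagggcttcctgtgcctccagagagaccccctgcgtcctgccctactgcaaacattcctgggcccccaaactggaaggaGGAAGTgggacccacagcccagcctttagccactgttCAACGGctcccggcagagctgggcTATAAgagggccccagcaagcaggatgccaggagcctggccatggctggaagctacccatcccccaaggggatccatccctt

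Both promoters held the same motifs in the same order and nearly the same place. Counting the last base before the start as -1, GGAAGT began at -83 in Elane and -93 in Prtn3, CAACGG at -51 and -56, and TATAA at -31 and -32. That order on the sense strand occurred in 22 of 32851 RefSeq promoter windows of this length (0.067%), those of Elane and Prtn3 being 2 of the 22. The order was taken from these 2 sequences, so their match was fixed in advance and the share tests nothing about them. GGAAGT, also chosen after the sequences were seen, was found in the windows of all 6 genes, against 23.8% of all windows. The stretches below show the GGAAGT match (capitals) in the other genes, each with 10 bases on either side, on the gene's own strand. They lie at chr11:87793552-87793577 (plus) for Mpo, chr14:56102764-56102789 (minus) for Ctsg, chr19:11640891-11640916 (minus) for Ms4a3 and chr2:150570343-150570368 (plus) for Cst7.
Mpo: gagagagagaGGAAGTtgcctttgtc
Ctsg: aggaagaaaaGGAAGTagtcacctgt
Ms4a3: gtatacttggGGAAGTgggtgggcca
Cst7: cttctttaaaGGAAGTggttgctctt

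These matches began at -222 in Mpo, -205 in Ctsg, -55 in Ms4a3 and -62 in Cst7. The window of Ms4a3 held a further GGAAGT on the opposite strand, from base 18 of the gene. CAACNG was found in 3 of the 6 windows (35% of all windows), those of Elane, Prtn3 and Ctsg, which are the serine proteases. TTNNGNAA was found in 2 (40.7% of all), those of Ms4a3 and Cst7, and in Ms4a3 it overlapped the match described above. The RUNX letters, TGTGGT, were found in 2 (16.8% of all), Ctsg and Cst7, and TATAA in 3 (24.9% of all), though in Ctsg it lay on the opposite strand far from the start. A match describes letters only, and the motifs were chosen after the sequences were seen.

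All 10 probes were detected on both arrays, with a detection p-value of 0, meaning that no negative control bead type was brighter. Signals below are the deposited, non-normalized intensities. Ranks run from 1, the brightest of the 45281 probes on that array. A probe's signal also depends on its sequence, so ranks do not order the transcripts by abundance.

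Among the serine proteases, Prtn3 and Elane were at nearly the same signal on both arrays. The Prtn3 probe read 15709 in the Ago2 Hem KO sample and 15568 in the control, ranks 10 in the Ago2 Hem KO sample and 13 in the control. The Elane probe read 15122 in the Ago2 Hem KO sample and 15309 in the control, ranks 18 and 17. On the normalized scale the difference of Ago2 Hem KO minus control was 0.04 (log2) for Prtn3 and -0.01 for Elane. Ctsg had the lowest difference of the 3 proteases, with a signal of 12818 in the Ago2 Hem KO sample against 14840 in the control, ranks 61 and 23. Its normalized difference was -0.24, or 1.18-fold lower, and 33.4% of the 8212 genes detected on both arrays differed by at least as much in either direction.

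Mpo, the peroxidase, was measured by 4 probes that did not all go the same way. Probe ILMN_1249030, the brightest by mean normalized signal, read 13536 in the Ago2 Hem KO sample and 13443 in the control, a log2 difference of 0.02. ILMN_2925094 read 13602 in the Ago2 Hem KO sample and 13081 in the control (0.06), and ILMN_2719256 read 11182 in the Ago2 Hem KO sample and 9812 in the control (0.03). ILMN_2600421 read 10431 in the Ago2 Hem KO sample and 12245 in the control, a difference of -0.38. So 3 of the 4 Mpo probes were slightly above 0 and the remaining probe was 1.30-fold lower in the Ago2 Hem KO sample, where its rank was 113 against 63 in the control. The Mpo probes spanned 0.44 on the log2 scale (SD 0.21 over 4 probes), next to a median span of 0.39 over the 176 genes on this array with 4 detected probes.

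Ms4a3, the membrane protein gene, had a bright and a dim probe whose differences had opposite signs. The bright probe, ILMN_2719732, read 6536 in the Ago2 Hem KO sample and 5749 in the control, ranks 215 and 208. The dim probe, ILMN_1250529, read 899 in the Ago2 Hem KO sample and 651 in the control, ranks 2395 and 2866. The raw signal was thus higher in the Ago2 Hem KO sample on both probes, while after normalization the bright probe differed by -0.03 and the dim one by 0.28. Their gap was 0.30, compared with a median gap of 0.18 between the brightest and second-brightest detected probes over 3016 genes. Cst7, the cathepsin inhibitor gene, had 1 probe, which read 1224 in the Ago2 Hem KO sample and 1235 in the control, ranks 1744 and 1451. Its normalized difference of -0.26 was the lowest of the 6 genes, 1.20-fold lower, and 30.1% of all genes differed by at least as much.

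**Figure D1:**
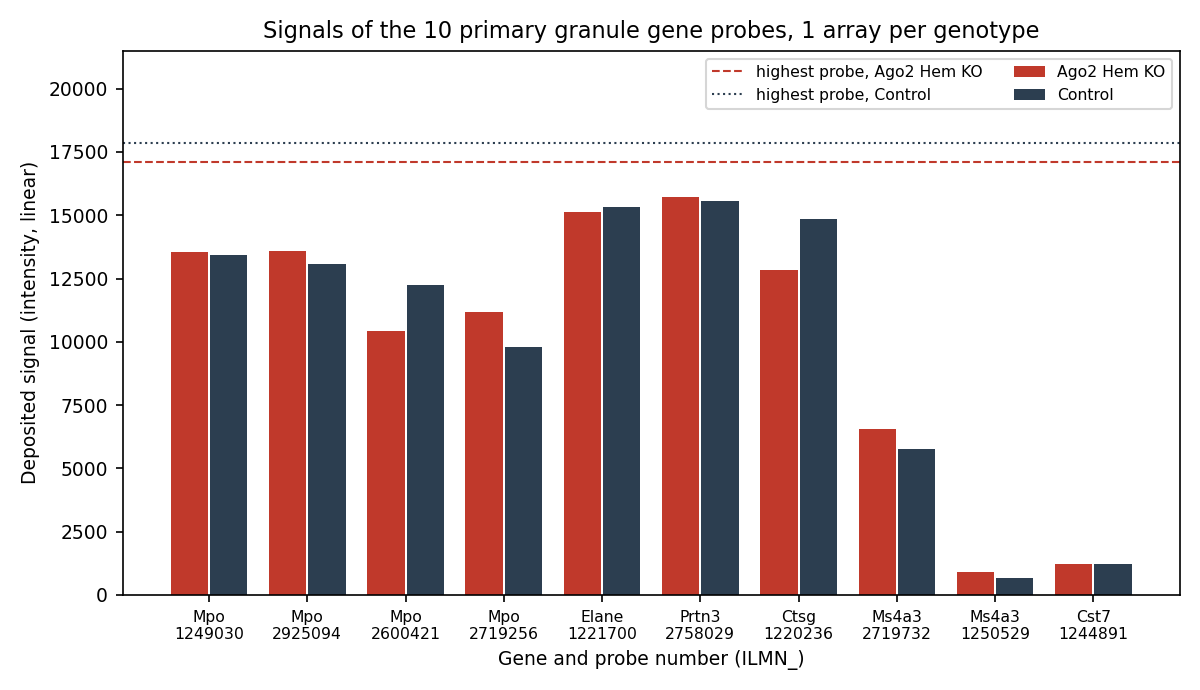
Deposited signal (linear intensity) of each of the 10 probes, with the Ago2 Hem KO array left and the control array right in each pair, and horizontal lines at the brightest probe of each array. The Mpo, Elane, Prtn3 and Ctsg probes reach 9812 to 15709, while Cst7 and the dim Ms4a3 probe lie near 1000; no bar has an error because each genotype has 1 array.

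No primary granule gene differed 2-fold in either direction. Of the 8212 genes detected on both arrays, 25 were at least 2-fold higher (0.304%) and 11 at least 2-fold lower (0.134%) in the Ago2 Hem KO sample, against 0 and 0 of these 6, and at such a background share a count of 0 among 6 is no result about them. Taking the brightest probe of each gene, Prtn3 and Mpo lay above 0 and Elane, Ms4a3, Ctsg and Cst7 below it, signs that for Mpo, Prtn3 and Ms4a3 changed with the processing. The median difference was -0.02, beside -0.05 over all genes, and the 6 ranged from -0.26 to 0.04, within the central 95% of all genes (-0.55 to 0.53). Over the 10 probes, 5 lay above 0 and 5 below. Of all 8212 genes, 41.8% lay above 0 and 58.1% below. Counts by sign, here and in the lists that follow, are to be read beside these shares. An SD of 0.21 per probe was computed from the disagreement between probes of the same gene on these 2 arrays. It leaves out variation that a gene's probes share, such as that between animals or RNA samples. It is therefore not the error of a difference between genotypes, which 1 array each cannot give. The differences of Mpo, Elane, Prtn3 and Ms4a3 were smaller than this SD, and those of Ctsg and Cst7 were slightly larger.

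**Figure D2:**
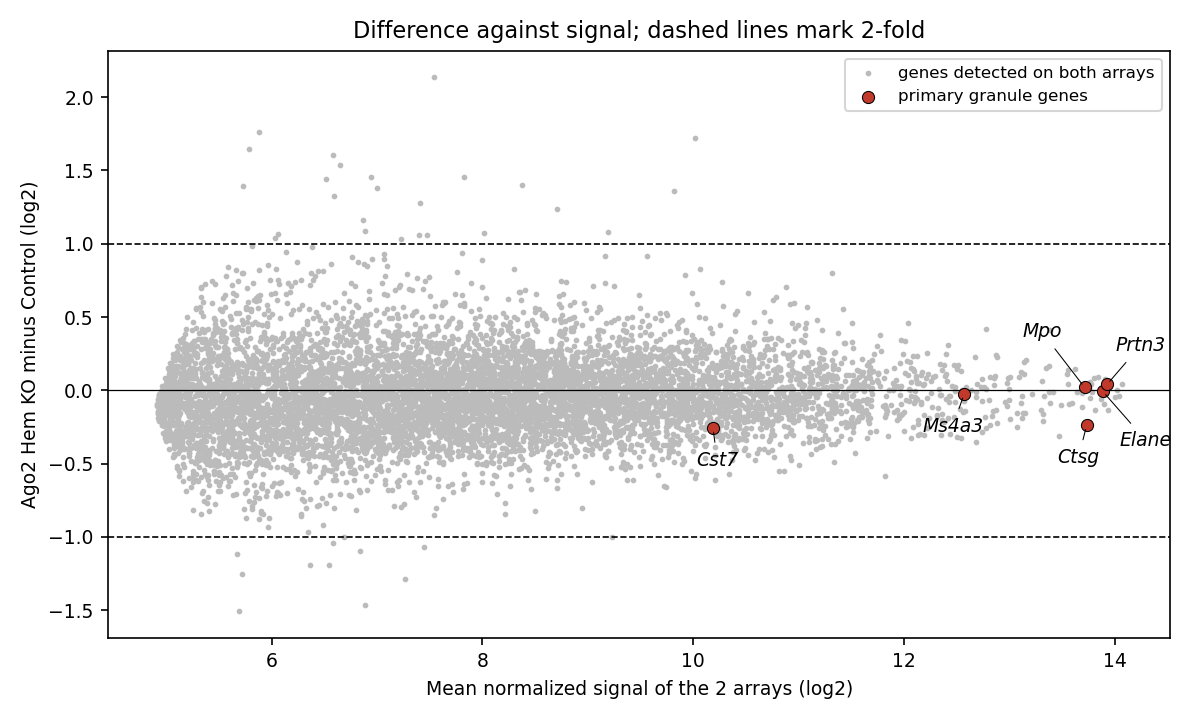
Difference of Ago2 Hem KO minus control (log2) against the mean normalized signal (log2) for the 8212 genes detected on both arrays, with the primary granule genes in red. Mpo, Elane, Prtn3 and Ctsg sit at the bright end, and all 6 lie between -0.26 and 0.04, inside the dashed 2-fold lines.

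The proteases and Mpo were among the brightest probes of these arrays. The brightest probe of any gene read 17115 on the Ago2 Hem KO array and 17868.5 on the control array. Prtn3 stood at 91.8% of that highest signal in the Ago2 Hem KO sample and 87.1% in the control, Elane at 88.4% in the Ago2 Hem KO sample and 85.7% in the control, and Ctsg at 74.9% in the Ago2 Hem KO sample and 83.1% in the control. Together the 10 probes held 1.12% of all background-corrected signal on the Ago2 Hem KO array and 1.30% on the control array. The Ago2 Hem KO array was brighter over most genes but less so at the top. The median ratio of background-corrected signals, Ago2 Hem KO over control, was 1.16 over all genes, 1.05 over the 100 brightest and 0.997 over the 6 primary granule genes. Whether signals this high were compressed by the range of the scanner was not tested.

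The sign of several of these small differences moved with the normalization. When the arrays were scaled to the same median instead of the same distribution, all 6 genes lay below 0, with a median of -0.26, and Ctsg reached -0.47. In that setting 82 of the 100 brightest genes also lay below 0, against 56 as reported. With cyclic loess, which fits a curve of difference against signal, Ms4a3 lay above 0 (0.03) and the other 5 below. Elane, Ctsg and Cst7 lay below 0 under all 8 alternatives tried, whereas Mpo was above 0 in 5 of 8, Prtn3 in 6 and Ms4a3 in 2. In the authors' value table Ctsg differed by -0.31 and Cst7 by -0.24. Among the 100 brightest genes as reported, 5 had a lower difference than Ctsg.

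**Figure D3:**
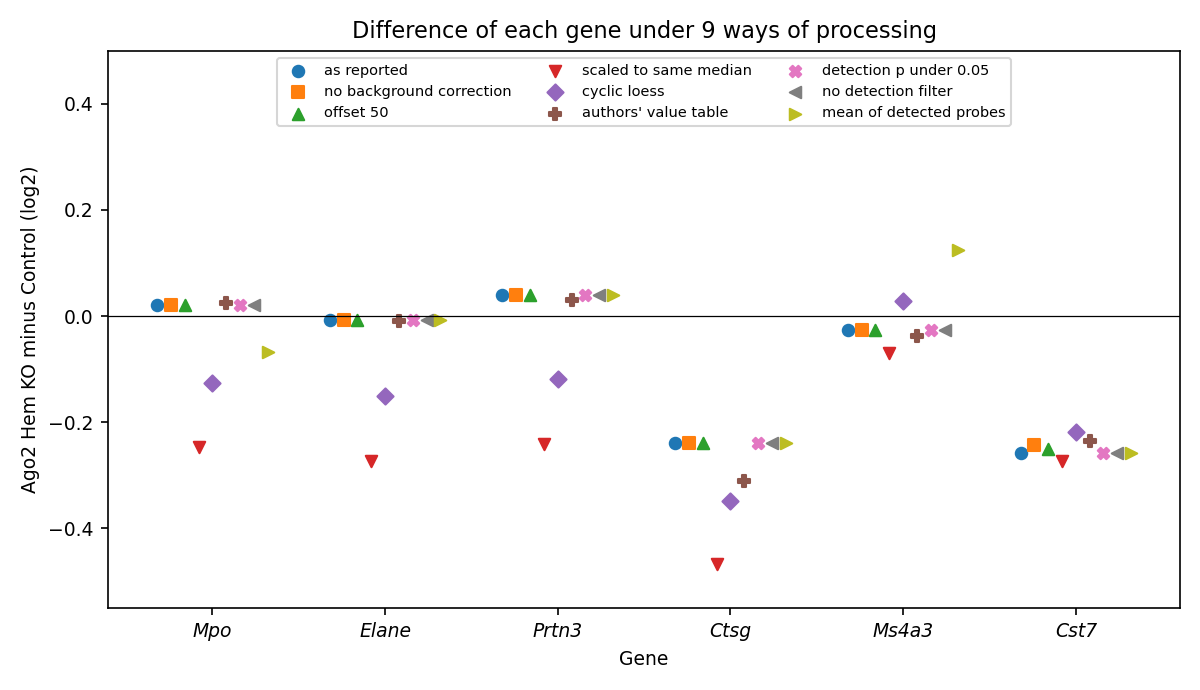
Difference of Ago2 Hem KO minus control (log2) for each of the 6 genes under 9 ways of processing, 1 marker each. Scaling to the same median gives the lowest value of every gene, down to -0.47 for Ctsg, and no marker reaches 2-fold.

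Among genes that work with the granule proteases, the proteoglycan gene Srgn had the highest difference. Srgn encodes serglycin, which holds proteases such as elastase in the granule. Its brighter probe read 2183 in the Ago2 Hem KO sample and 1319 in the control (0.53), and its other probe read 716 in the Ago2 Hem KO sample and 410 in the control (0.68). Both Srgn probes were thus higher in the Ago2 Hem KO sample, though under 2-fold, and over all settings tried the gene's difference stayed between 0.50 and 0.61. Ctsc, which encodes the activating cathepsin C, read 890 in the Ago2 Hem KO sample and 743 in the control (0.05), and its other probes differed by -0.06 and -0.19. Serpinb1a, an inhibitor of these proteases, differed by 0.07 and the related Serpinb6a, lowest in its list, by -0.31. Of the 15 detected genes of protease activation, sorting and inhibition, 8 lay above 0 and 7 below, 0 at 2-fold, with a median of 0.02 beside -0.05 over all genes. Of 12 detected genes of granule and lysosome cargo, 5 lay above 0 and 7 below, 0 at 2-fold, with a median of -0.04. Within the cargo list Srgn was highest and Cd63, a granule membrane tetraspanin, lowest at -0.32, although the other Cd63 probes gave 0.02 and 0.12. The signs of both list medians changed between settings.

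The transcription factors known to act on granule genes were spread on both sides of 0. Of 12 detected, 5 lay above 0 and 7 below, with a median of -0.02 (0.02 with cyclic loess) and 0 at 2-fold. Myb was highest at 0.46, with signals of 224 in the Ago2 Hem KO sample and 160 in the control, and its other detected probe gave 0.13. Ets1 was lowest at -0.60, with signals of 416 in the Ago2 Hem KO sample and 509 in the control. Cebpe, which drives the later promyelocyte steps, read 2182 in the Ago2 Hem KO sample and 1926 in the control (-0.04), and its 4 probes ranged from -0.12 to 0.06. Spi1, the PU.1 gene, differed by -0.22, Cebpa by -0.25 and Gfi1, a repressor needed for granulocyte formation, by 0.10. The 2 detected Runx1 probes disagreed in sign, at 0.27 and -0.26.

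Other genes of granulocyte-monocyte progenitors had a median of -0.05 over 20 detected, 9 above 0 and 11 below, 0 at 2-fold. The granulocyte colony-stimulating factor receptor gene Csf3r was highest at 0.48 on its brightest probe, with its next probe at -0.11, and the Fc receptor gene Fcgr3 was lowest at -0.41. Secondary and tertiary granule genes, which are transcribed after the primary granule genes, had a median of -0.16 over 10 detected, 9 of them below 0. Over all genes the median was -0.05, and 58.1% lay below 0. Ltf, which encodes lactoferrin, read 533 in the Ago2 Hem KO sample and 853 in the control, 2.00-fold lower and the only gene of the 10 at 2-fold. Without background correction Ltf differed by -0.90 and in the authors' value table by -0.86, both short of 2-fold. The highest of these 10 was Chil3 at 0.02, while Camp (-0.08), Lcn2 (-0.07) and Ngp (-0.05) were close to the median of all genes. Of the same list Olfm4 passed detection in the Ago2 Hem KO sample alone and Mmp9 in the control alone, and both were dim. On the background-corrected, normalized scale Olfm4 was at least 1.41-fold higher and Mmp9 at least 1.31-fold lower in the Ago2 Hem KO sample. Those bounds do not hold in the authors' value table, where Olfm4 differed by 0.20 and Mmp9 by -0.15 (log2). Mature neutrophil markers ran from Wfdc21 at 0.56 to Retnlg at -1.12 with a median of 0.16 over 6 detected, which was -0.01 with no detection filter. Wfdc21 differed by 0.22 without background correction. Retnlg was dim, at 109 in the Ago2 Hem KO sample and 137 in the control, and without background correction it differed by -0.47.

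**Figure D4:**
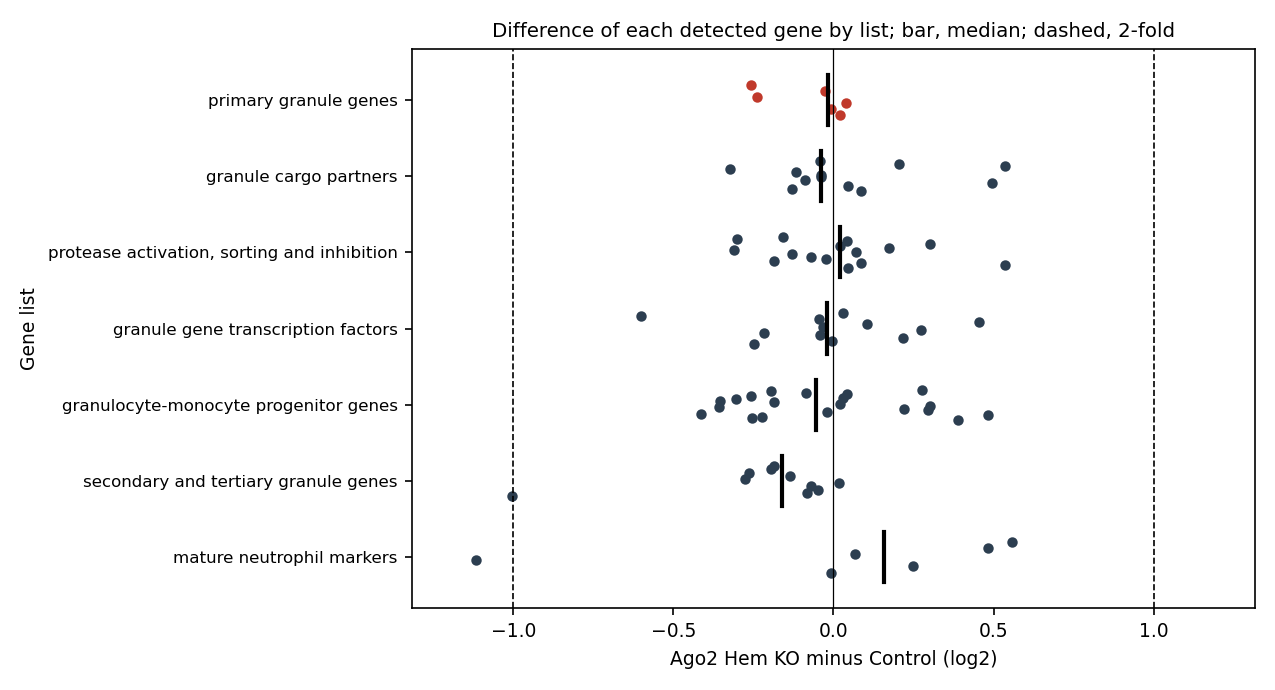
Difference of Ago2 Hem KO minus control (log2) for each gene detected on both arrays, by list, with black bars at the medians and dashed lines at 2-fold. The primary granule genes lie between -0.26 and 0.04, and among the genes of the other 6 lists plotted only Ltf and Retnlg (-1.12) are at 2-fold; marker lists of other lineages are not plotted.

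The relatives of these genes were mostly dim or not detected. Of the heme peroxidases, Epx, the eosinophil enzyme, read 164 in the Ago2 Hem KO sample and 135 in the control (0.21), and Lpo, which neighbours Mpo on chromosome 11, was not detected. In the granzyme and chymase locus around Ctsg, 12 of 15 genes were not detected on either array, Gzmn was detected in the control only, and Mcpt8, a basophil protease gene beside Ctsg, read 151 in the Ago2 Hem KO sample and 117 in the control (0.46). Of 13 Ms4a genes with a named probe, 9 were not detected on either array, Ms4a6c passed detection on the Ago2 Hem KO array alone, and Ms4a2 (0.25) and Ms4a6d (-0.27), which lie beside Ms4a3, were dim. Of the cystatins, Cst3 was detected on both arrays at 4170 in the Ago2 Hem KO sample and 2927 in the control (0.30), and Cstb differed by 0.02. Next to Elane and Prtn3, Plppr3 differed by -0.12, Ptbp1 by 0.01 and Med16 by -0.41.

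The genes closest in normalized signal on the 2 arrays to the median of the 6 were Rps29, Ppia, H2ac20, Ubb-ps, Ybx1 and H2ac7. Their distances from the members' median levels of 13.67 in the Ago2 Hem KO sample and 13.78 in the control (log2) were 0.05 to 0.10. Likeness over 2 arrays describes brightness and little else. By rank of signal among genes in the Ago2 Hem KO sample, Mpo stood between Ppia and H2ac20, Elane between H2ac24 and H2ac13, Prtn3 between Rps2 and Tuba1b, Ctsg between Rpl35 and Mif, Ms4a3 between Nme2 and Selenoh, and Cst7 between Caprin1 and Dda1. In the control, Mpo stood between H2ac20 and Ubb-ps, Elane between Eef1a1 and Rpl41, Prtn3 between Rpl9 and Eef1a1, Ctsg between Rps4x and H2ac24, Ms4a3 between Got2 and Sh3bgrl3, and Cst7 between Vamp3 and Slc44a2. The neighbours of the proteases and Mpo were mostly genes of ribosomal proteins, histones and other housekeeping functions.

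Detection reached 34.4% of the 45281 probes in the Ago2 Hem KO sample and 32.8% in the control, with median signals of 91.7 in the Ago2 Hem KO sample and 88.1 in the control. Ago2, the targeted gene, read 180 in the Ago2 Hem KO sample and 288 in the control on its brightest probe (-1.29), or -0.83 in the authors' value table. Its other probes differed by -0.79 and -0.44, and all 3 stayed detected on both arrays. The sources used here do not say whether these probes lie within the deleted part. Of the LSK marker list, Kit, the c-Kit gene of the sorting gate, was detected at 2793 in the Ago2 Hem KO sample and 2071 in the control. Cd34, which is not part of the gate, was detected at 497 in the Ago2 Hem KO sample and 359 in the control. Gata2 (0.45) and Meis1 (0.14) were also detected on both arrays, and the 4 genes of the LSK list so detected all lay above 0, with a median of 0.26. A dimmer Meis1 probe, also detected on both arrays, read 267 in the Ago2 Hem KO sample and 137 in the control, a difference of 1.255 and so past 2-fold. In the authors' value table that probe differed by 0.72, short of 2-fold. Mecom and Cd48 passed detection on the Ago2 Hem KO array alone, while Flt3, Procr, Slamf1 and Hlf were not detected on either array and Ly6a, the Sca1 gene, had no probe named here. Of the mature neutrophil markers, S100a8 read 13036 in the Ago2 Hem KO sample and 12721 in the control, and S100a9 read 6406 and 4675. The other detected markers of that list were far dimmer, such as Csf3r at 528 in the Ago2 Hem KO sample and 343 in the control. Cxcr2 read 110 in the Ago2 Hem KO sample and 101 in the control.

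Markers of other lineages moved between the arrays, and their part in the values above was not tested. All 9 erythroid markers detected on both arrays lay above 0, 5 of them at 2-fold or more, from Gata1 (0.14) to Hba-a1 (2.14), with a median of 1.24 and a summed background-corrected signal of 6445 in the Ago2 Hem KO sample and 2782 in the control. The 5 were the globin genes Hba-a1, Hbb-bt (1.40) and Hbb-bs (1.24), the carbonic anhydrase gene Car1 (1.72) and the transcription factor gene Klf1 (1.44). The list median was 0.67 with detection called at a p under 0.05, 0.81 without background correction and 0.74 in the authors' value table. Klf1 likewise differed by 0.81 without background correction and 0.74 in the authors' value table, short of 2-fold. Another 4, Epor, Rhag, Slc4a1 and Ermap, passed detection on the Ago2 Hem KO array alone. All 6 B cell markers detected lay below 0, from Vpreb3 (-0.03) to Igll1 (-0.79), with a median of -0.36 and a summed signal of 701 in the Ago2 Hem KO sample and 822 in the control, and Pax5 and Ms4a1 were not detected. In the authors' value table the B cell median was -0.18. Of the macrophage markers, C1qa, C1qb, C1qc and Ms4a6c passed detection on the Ago2 Hem KO array alone. On the background-corrected, normalized scale C1qc was at least 2.94-fold and C1qb at least 2.75-fold higher there. Both were dim, C1qc at 171 in the Ago2 Hem KO sample and 94 in the control, C1qb at 164 and 94. In the authors' value table C1qc differed by 0.66 and C1qb by 0.61, both short of 2-fold. Adgre1, Ccr2 and Ms4a7 were detected on neither array, and the 5 macrophage markers detected on both ran from Csf1r (0.39) to Cd14 (-0.35), with a median of 0.13 (0.36 at a detection p under 0.05) and a summed signal of 3293 in the Ago2 Hem KO sample and 2609 in the control. Of the T and NK cell markers, Cd3e, Cd3d and Cd3g were among 6 not detected on either array, while Prf1 (0.45), Nkg7 (-0.35) and Thy1 (-0.70) were detected on both. Their median was -0.35, the value of Nkg7, and their summed signals were 6410 in the Ago2 Hem KO sample and 7065 in the control. Nkg7 alone read 6366 in the Ago2 Hem KO sample and 7038 in the control, nearly all of that sum. Prf1 and Thy1 were dim, and without background correction they differed by 0.24 and -0.35. The T and NK cell median was -0.04 with no detection filter. Nkg7 was also in the list of granulocyte-monocyte progenitor genes. Mast cell, basophil and eosinophil markers ran from Mcpt8 (0.46) to Hdc (-0.14) with a median of 0.07 over 9 detected and summed signals of 8255 in the Ago2 Hem KO sample and 7355 in the control. Mcpt8 was dim and differed by 0.22 without background correction. In bulk RNA, fewer cells of a type and less RNA per cell cannot be told apart.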

How the data were processed

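LSK cell RNA of 1 Ago2 Hem KO and 1 Control sample was measured on Illumina bead arrays. Per the file headers, the deposited non-normalized table holds a linear intensity and a detection p-value for each probe, the latter in steps that match 936 negative controls. The authors also deposited a normalized intensity table. The submitters' processing notes name BeadStudio, with no version. Intensities were corrected with the normexp model (limma 3.58.1, R 4.3.3), with the background inferred from the detection p-values. After an offset of 16, quantile normalization and log2 followed, which removes changes shared by most genes. Detected means a detection p under 0.01, and 2-fold was the call. A gene takes its brightest probe detected on both arrays. Platform symbols were updated through RefSeq GRCm38.p6, which matched 34807 of 34885 probes with 1 symbol; 18 had several. No test was possible. Named genes were all members, each list's highest and lowest gene, 2-fold genes, direct partners (Ctsc, Srgn, Serpinb1a and the main transcription factors), nearest genes by signal, and Ago2. Prss57 had no probe named here. Other genes, such as further probes' genes and relatives, were named after their values were seen. Members and lists were chosen with earlier results of these data known. Promoters are RefSeq windows; all 6 genes matched. The steps were also run on simulated arrays in which the changes set in advance were larger than 2-fold. Such a run does not measure how accurate the small differences reported here are.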

Additional observations from a re-analysis of the deposited data

How the results depend on the processing

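Of the 8 alternatives, 3 changed the normalization (cyclic loess, equal medians, the table of values normalized by the authors), 2 the background step (left out, or followed by an offset of 50), 2 the detection filter (a p under 0.05, or left out), and 1 averaged all detected probes of a gene. No member reached 2-fold under any of these 8. The median of the 6 members was -0.26 when the arrays were scaled to the same median, the only alternative that moved it by more than the probe SD of 0.21; it was -0.14 with cyclic loess and between -0.04 and -0.02 otherwise. In that scaled setting Mpo lay at -0.25, Elane at -0.27, Prtn3 at -0.24 and Ctsg at -0.47. Leaving out each member in turn moved the median by less than the probe SD. Counts of all genes at 2-fold, 25 higher and 11 lower as reported, were 6 and 0 without background correction and in the authors' value table, 15 and 2 with an offset of 50, and 37 higher and 14 lower with no detection filter. Among list medians, that of secondary and tertiary granule genes was -0.09 in the authors' value table, that of mature neutrophil markers was 0.03 at a detection p under 0.05 and -0.01 with no detection filter, and that of macrophage markers was 0.36 at a detection p under 0.05. With 1 array per genotype no replicate could be left out. No paired analysis was possible because each genotype has 1 sample and no test was run. The signals of Elane, Prtn3, Ctsg and Mpo were among the brightest on each array. Whether that limits what these arrays can show of them was not tested.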
